A study of Mus musculus with 2 samples.

Results

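The genes described here are 9 secreted antagonists of Wnt signaling, *Dkk1*, *Dkk2*, *Dkk3*, *Sfrp1*, *Sfrp2*, *Sfrp4*, *Frzb*, *Wif1* and *Sostdc1*. They were chosen by name from the 28000 genes of the deposited gene list, and all 9 symbols were found there. Their transcripts were counted in single cells of mouse embryonic skin at E15.5 with 10x 3′ RNA sequencing, in which a unique molecular identifier (UMI) marks each captured transcript. The WT library was labelled wild type and, by the study's methods, came from *TyrCre::Hira wt/wt:tdTomato* embryos. The KO library was labelled HIRA knockout and came from *TyrCre::Hira fl/fl:tdTomato* embryos, in which Cre deletes part of *Hira*, the gene of a histone H3.3 chaperone. Both lines were of a mixed strain background close to C57BL/6J, and both carried Cre and the reporter. Cells were sorted for tdTomato from trunk skin. The tyrosinase promoter drives Cre in melanoblasts and in other neural crest derivatives, and the reporter marks every descendant of a cell in which Cre acted, whatever that descendant became. Which of the cells carried the deletion was not measured. The study's methods describe embryos processed one by one, while the labels do not give the number per library. In the study, the first WT embryo was female and the first KO embryo male, and these were littermates processed together. The labels do not say whether the libraries used here are that pair. In the study the first KO embryo was the only male among the KO embryos, and the KO library below was male as well. The numbers of barcodes below were close to the study's cell numbers for that pair and far below those for its other embryos. There was 1 library per genotype, so no replicate check was possible and all intervals below cover counting error alone.

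The WT library held 1546 cell barcodes with 7073939 UMIs (median 3961 per barcode) and the KO library 846 barcodes with 5049514 UMIs (median 5152.5). No barcode was shared, and after filtering 1540 WT and 828 KO cells remained. *Hira* itself had 82 UMIs in the WT library, 11.6 CPM (UMIs of a gene per 1000000 UMIs of the same cells), and 50 UMIs or 10.0 CPM in the KO library. In melanoblast-like cells it was at 13.8 CPM in WT (35 UMIs) and 3.53 CPM in KO (3 UMIs), in glial-like cells at 11.2 and 7.92 CPM, and in mesenchymal-like cells at 6.87 CPM (8 UMIs) and 11.0 CPM (17 UMIs). The libraries count 3′ ends and the sources used here do not give the deleted exon, so these counts check nothing about the deletion. *Xist*, the RNA of the inactive X chromosome, was at 2382 CPM in WT against 4.60 CPM in KO cells, whereas the Y-linked *Eif2s3y* was at 0 and 44.0 CPM. The 2 libraries therefore differed in sex as well as in genotype, and for every comparison below the effects of sex and genotype cannot be told apart. The reporter transcript itself was detected in 3.38% of WT cells and in 8.21% of KO cells.

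Wnt ligands signal through Frizzled receptors and LRP co-receptors, and vertebrate cells secrete several unrelated families of proteins that block them. Dkk1, Dkk2 and Sostdc1 act on the LRP co-receptor, whereas the secreted Frizzled-related proteins and Wif1 bind Wnt ligands themselves. In embryonic skin, Wnt signaling in epidermis and upper dermis is required for the formation of hair follicles, and inhibitors made by the dermis and the placode shape where it acts.

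The 9 antagonists were read in 21 clusters, made without the antagonists and other Wnt genes and named from marker lists. Of these, 19 clusters could be named and fell into 11 classes. The mesenchymal-like class held 229 WT and 260 KO cells, the glial-like class 415 and 195, the melanoblast-like class 536 and 139, the macrophage-like class 146 and 36 and the keratinocyte-like class 12 and 81. The mesenchymal-like class was named by its 10 markers, so their presence is no separate check. They had a sum of 3558 CPM in WT against 4712 CPM in KO, and *Pcolce* (627 CPM in WT) and *Col6a2* (706 CPM in KO) were the most abundant. The 9 glial markers had UMIs in glial-like cells of both libraries and summed to 2134 and 2069 CPM.

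Mesenchymal-like cells formed 3 clusters, called here by a leading gene. The *Crabp1*-led cluster, also led by the dermal transcription factor genes *Twist2* and *Twist1*, made up 74.7% (95% Clopper-Pearson interval 68.5 to 80.2) of mesenchymal-like cells in WT and 37.7% (31.8 to 43.9) in KO. The *Mfap4*-led cluster, also led by the matrix genes *Aspn* and *Ogn*, made up 16.2% (11.6 to 21.6) and 50.0% (43.8 to 56.2). The *Mfap5*-led cluster, led in addition by *Ly6a*, *Clec3b* and *Pi16*, made up 9.17% (5.77 to 13.7) and 12.3% (8.57 to 16.9). The mix of mesenchymal-like cells thus differed between the libraries, and the cause of this was not tested. Glial-like cells formed a *Pcdh20*-led cluster (157 WT and 97 KO cells), an *Epha5*-led cluster (119 and 58), a *Grb14*-led cluster (71 and 14) and a *Cdc25c*-led cluster with cell division genes (68 and 26). An *Ebf1*-led cluster (12 and 14 cells) and a *Pou3f1*-led cluster (31 and 59) stayed unnamed. The first raised 7 of 10 mesenchymal markers and the second 8 of 9 glial markers, but a neuronal marker, *Stmn2* and *Syt1* respectively, stood among the leading genes of each. *Stmn2* also had UMIs in the *Crabp1*-led cluster (171 CPM for WT, 127 CPM for KO), where 2 and 1 of the 7 neuronal markers were detected. *Stmn2* alone thus does not set the *Ebf1*-led cluster apart from mesenchymal-like cells.

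Free RNA from broken cells gives UMIs of a gene in cells that do not express it, so macrophage-like cells served as a background. The 10 mesenchymal markers summed to 158 CPM in WT against 713 CPM in KO macrophage-like cells, and to 33.5 and 149 CPM in melanoblast-like cells. The level of mesenchymal transcripts in both of these classes was therefore higher in the KO library. It was higher in macrophage-like than in melanoblast-like cells of each library, and how much of it was free RNA was not tested. Markers of other cell types also differed in mesenchymal-like cells. The erythroid gene *Hbb-bs* was at 47.2 CPM in WT against 728 CPM in KO. Granulocyte markers summed to 33.5 CPM in WT (*Ltf* at 0) against 216 CPM in KO (*Mpo* at 0), from 5 of 6 each, with *S100a8* the most abundant at 17.2 and 113 CPM. In glial-like cells *Hbb-bs* was at 46.7 and 639 CPM, and granulocyte markers summed to 30.9 and 224 CPM, from 6 of 6 in each. Keratinocyte markers there summed to 87.4 CPM in WT (8 of 9, *Dsp* at 0) and 531 CPM in KO (9 of 9), with *Krt10* the most abundant at 64.4 and 215 CPM, and mast cell markers to 129 CPM (6 of 8, *Cma1* 67.7 CPM) and 29.4 CPM (4 of 8, *Cpa3* 10.2 CPM), with *Ms4a2* and *Fcer1a* at 0 in both and *Mcpt4* and *Gata2* at 0 in KO. Melanoblast markers moved the other way in mesenchymal-like cells, from 139 CPM in WT (8 of 9, *Oca2* at 0) to 76.7 CPM in KO (6 of 9, with *Tyrp1*, *Oca2* and *Gpr143* at 0), with *Slc24a5* the most abundant at 44.6 and 32.9 CPM. So did mast cell markers, from 111 CPM in WT (7 of 8, *Fcer1a* at 0) to 18.0 CPM in KO (4 of 8, with *Mcpt4*, *Gata2*, *Ms4a2* and *Fcer1a* at 0), with *Cma1* the most abundant at 54.9 and 9.02 CPM, and macrophage markers, from 90.1 CPM (9 of 9, *C1qc* 27.5 CPM) to 40.0 CPM (8 of 9, *Lyz2* 19.98 CPM, *Adgre1* at 0). Neuronal markers in mesenchymal-like cells were lower in KO as well, at 130 CPM in WT (2 of 7) against 66.4 CPM in KO (4 of 7). *Stmn2* was the most abundant of them, at 129 and 53.5 CPM. The part of these transcripts in the ratios below was not tested. The median depth of macrophage-like cells was 4850.5 UMIs in WT and 6796.5 in KO, against 4447 and 5418.5 in mesenchymal-like cells and 3372 and 4205 in glial-like cells. In macrophage-like cells, 5.48% of WT and 27.8% of KO cells held a UMI of any antagonist, against 77.3% and 86.5% of mesenchymal-like cells. Cells were also thinned to 2000 UMIs each, which left out 102 WT and 23 KO cells below that depth. The shares were then 2.21% and 11.1% in macrophage-like and 53.2% and 66.7% in mesenchymal-like cells. Macrophage-like values are given beside those of the antagonists below.

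Together the 9 genes had 2213 UMIs in the WT and 2527 UMIs in the KO library. Mesenchymal-like cells held 25.9% (24.1 to 27.8) of these UMIs in WT and 53.4% (51.4 to 55.3) in KO, while the same class made up 14.9% and 31.4% of the cells. Glial-like cells held 65.3% (63.2 to 67.2) and 34.3% (32.5 to 36.2) and made up 26.9% and 23.6% of the cells. Single genes carried these pooled shares. *Sfrp2* gave 794 of the 1349 mesenchymal-like UMIs in KO, and without it glial-like cells held 50.8% (48.4 to 53.2) and mesenchymal-like cells 33.2% (31.0 to 35.5) of the KO UMIs. *Sostdc1* gave 787 of the 1444 glial-like UMIs in WT, and without it glial-like cells held 47.9% (45.2 to 50.6) and mesenchymal-like cells 39.9% (37.3 to 42.6) of the WT UMIs. The class with most antagonist UMIs in KO thus depended on *Sfrp2*. At the level of clusters, the *Epha5*-led cluster alone held 44.2% of the WT UMIs and 26.3% of the KO UMIs, whereas the *Mfap4*-led cluster held 4.79% and 35.5%. Melanoblast-like cells, which were 34.8% and 16.8% of the cells, held 4.70% and 1.66% of these UMIs.

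**Figure D1:**
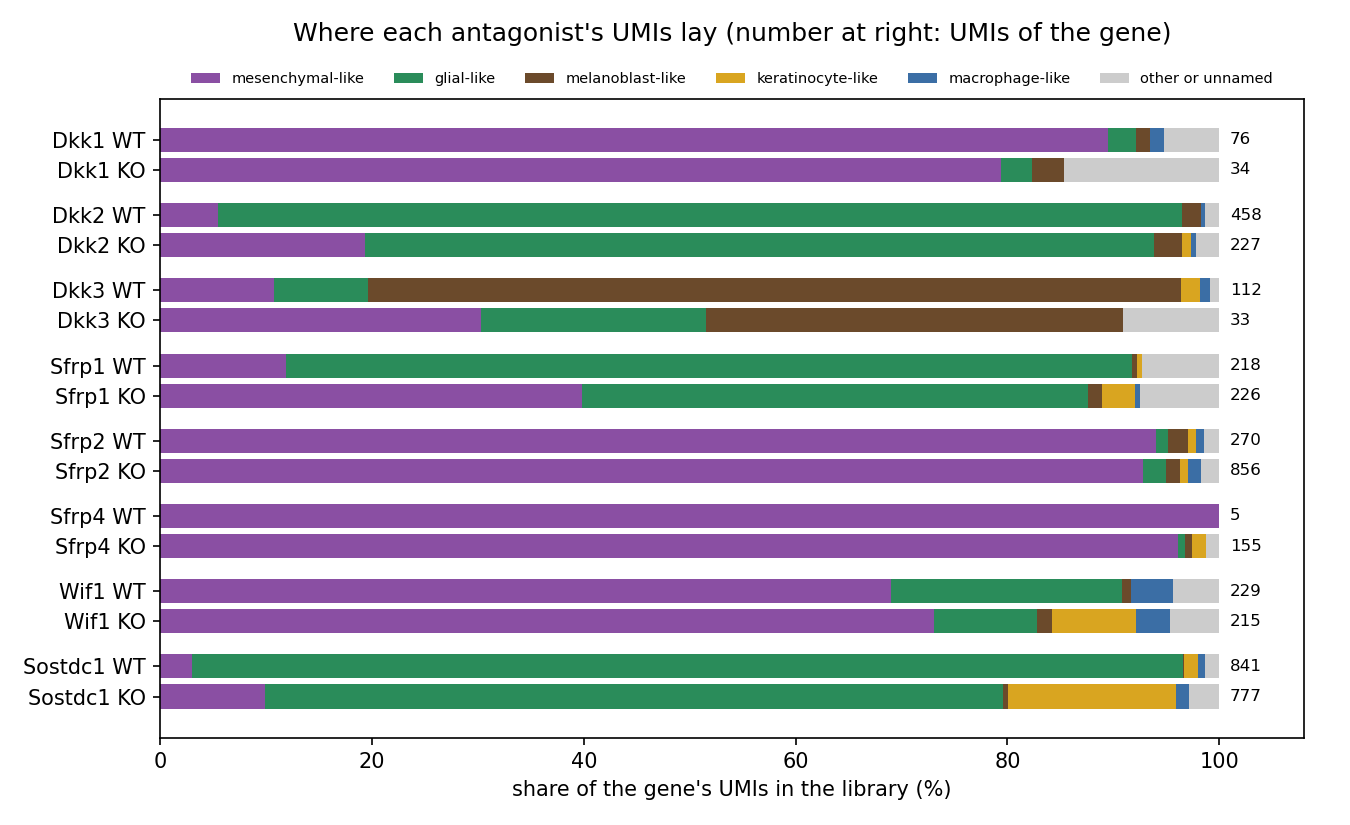
Stacked bars show the share of each antagonist's UMIs (percent, horizontal axis) that lay in each class of cells, with 1 bar per gene and library and the gene's UMIs at the right; *Frzb*, with 4 UMIs in each library, is not drawn. *Dkk1*, *Sfrp2*, *Sfrp4* and *Wif1* lay mostly in mesenchymal-like cells of both libraries, *Dkk2* and *Sostdc1* mostly in glial-like cells, and *Dkk3* mostly in melanoblast-like cells of the WT library.

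Levels in mesenchymal-like cells were compared between KO and WT as the ratio of CPM, with an exact conditional binomial interval, for genes with at least 10 UMIs in the 2 libraries together. Of the 8 antagonists with that many, all but *Frzb*, 5 differed by at least 2-fold, where 12.5% of all 10181 genes did. *Sfrp1*, *Sfrp2*, *Sfrp4* and *Sostdc1* were the 4 higher in KO, against 8.61% of all genes, and *Dkk1* was the 1 lower, against 3.84%. The median log2 ratio was 0.81 over the 8 antagonists and 0.01 over all genes. When the 3 mesenchymal-like clusters were given the same weights in both libraries, those of the WT cells, 3 antagonists passed 2-fold, namely *Sfrp4* (log2 ratio 3.07), *Sostdc1* (1.08) and *Dkk3* (−1.12, on 12 and 10 UMIs), and *Dkk1*, *Sfrp1* and *Sfrp2* no longer did. Some cells of the class held UMIs of adipocyte or muscle markers. Without these cells (66 of 229 WT and 103 of 260 KO cells, a setting chosen after seeing the data) 2 antagonists passed 2-fold, *Sfrp4* (5.89) and *Dkk1* (−1.31), while *Sfrp1* was at 0.85 (−0.09 to 1.85), *Sfrp2* at 0.92 (0.63 to 1.22) and *Sostdc1* at 0.95 (0.16 to 1.80). The share of all genes past 2-fold was read in the reported setting only. The counts under other settings therefore cannot be set against a general rate. Within the *Crabp1*-led cluster 2 of 6 antagonists passed 2-fold, where 12.8% of 8211 genes did. Both were lower in KO (7.83% of all genes) and 0 were higher (4.98%), with a median of −0.59 over the 6 and −0.03 over all genes. The 2 were *Dkk2* with 12 WT and 3 KO UMIs and *Dkk3* with 10 and 2, and both intervals included 0. With macrophage-like levels subtracted the count was 3, each lower in KO, as *Sostdc1* was then at −1.49. The count was 0 at Leiden resolution 2, with at least 50 UMIs, without the cells called as doublets and with thinning. In those settings fewer of the antagonists had enough UMIs for a ratio. With means over cells the count was 1. Within the *Mfap4*-led cluster 4 of 6 antagonists passed 2-fold, where 22.9% of 7206 genes did. These were *Sfrp2*, *Sfrp4*, *Wif1* and *Sostdc1*, each higher in KO (16.3% of all genes), and 0 were lower (6.55%). The median was 1.72 over the 6 and 0.09 over all genes. Over 12 alternative settings this count was 2 to 5, *Sfrp4* was part of it in each, and *Dkk2* was past 2-fold lower in 5 of them. Without the cells holding a UMI of an adipocyte marker the 4 past 2-fold were *Sfrp4*, *Wif1* and *Sostdc1*, higher in KO, and *Dkk2*, lower at −1.53 (−2.96 to 0.03), and the intervals of *Wif1* (−1.46 to 6.68) and *Sostdc1* (−0.66 to 4.45) included 0. In glial-like cells 1 of 6 antagonists, *Sfrp2*, passed 2-fold, higher in KO, where 10.2% of 9896 genes passed in either direction, 5.27% higher and 4.9% lower. The median was 0.17 over the 6 and −0.02 over all genes.

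**Figure D2:**
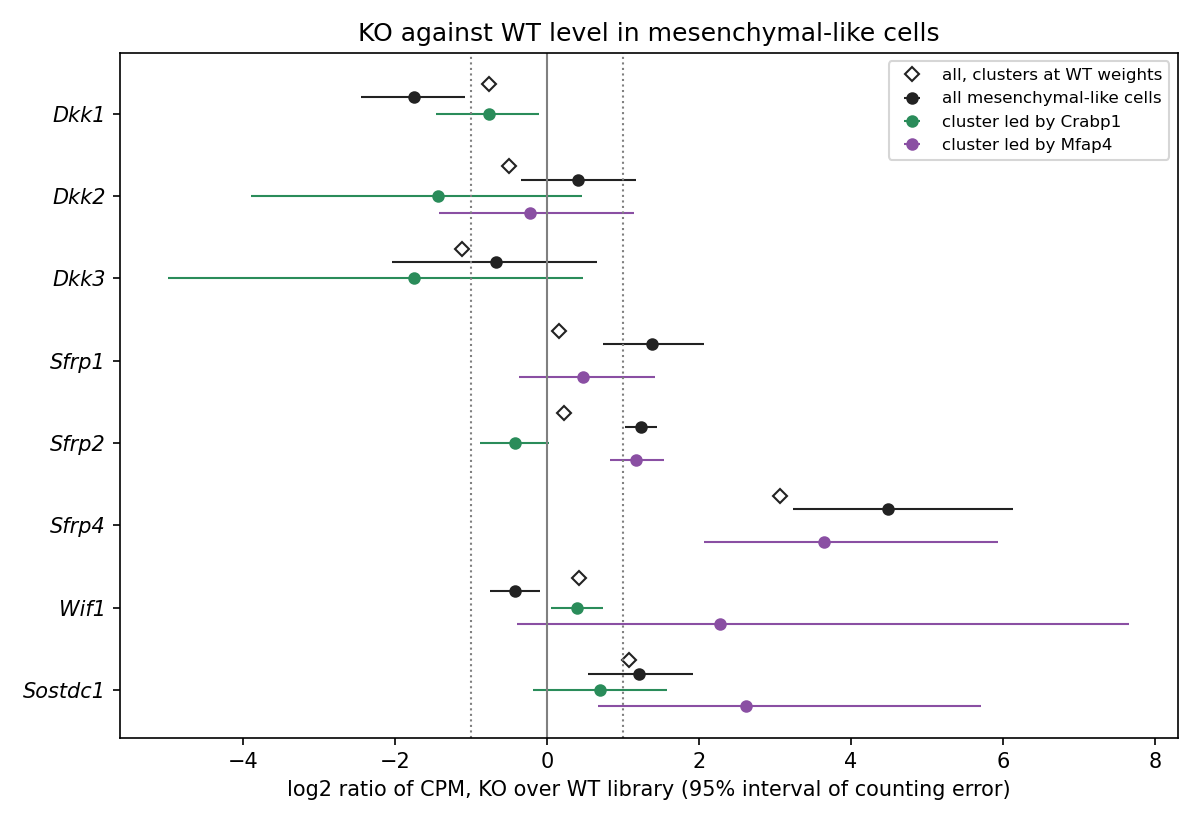
The log2 ratio of CPM, KO over WT library, is shown on the horizontal axis for 8 antagonists in all mesenchymal-like cells (black) and in the clusters led by *Crabp1* (green) and *Mfap4* (purple), with 95% intervals of counting error, the ratio at WT cluster weights as open diamonds, and 2-fold marked by dotted lines; a cluster is drawn where the gene had enough UMIs there. *Sfrp4* lies past 2-fold in all mesenchymal-like cells, at WT weights and in the *Mfap4*-led cluster, whereas *Sfrp1* and *Sfrp2* lie near 0 at WT weights.

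The Dickkopf family was represented by *Dkk1*, *Dkk2* and *Dkk3*. *Dkk1* (chr19:30545863-30549665, minus strand, GRCm38), which encodes an inhibitor of LRP5 and LRP6 made in the dermis, had 76 UMIs in the WT and 34 in the KO library. In mesenchymal-like cells it was at 58.4 CPM (Poisson interval 45.3 to 74.0) in WT against 17.4 CPM (11.5 to 25.3) in KO, giving a log2 KO/WT of −1.75 (−2.45 to −1.08). All of these UMIs lay in the *Crabp1*-led cluster, where the level was 77.3 CPM (60.0 to 98.0) in WT against 45.6 CPM (30.03 to 66.3) in KO, giving a log2 KO/WT of −0.76 (−1.46 to −0.10). The lower *Dkk1* of the class thus held a smaller difference within the cluster and a smaller share of that cluster in KO. The share of *Crabp1*-led cells with a *Dkk1* UMI was 22.2% (16.2 to 29.2) in WT and 15.3% (8.83 to 24.0) in KO, at median depths of 4534 and 5720 UMIs, against 0.685% and 0% of macrophage-like cells. With cells of at least 2000 UMIs thinned to that number, the shares were 10.3% and 9.18%, and their intervals overlapped. The log2 ratio was then −0.55 in the class and 0.41 in the cluster, so the direction of the difference within the cluster was not stable. In the *Mfap4*-led cluster *Dkk1* had 0 UMIs in both libraries, a limit of 14.6 CPM in WT against 4.17 CPM in KO at 3 counts, and in the *Mfap5*-led cluster it also had 0. The unnamed *Ebf1*-led cluster was the other source, at 87.7 CPM (4 UMIs, 23.9 to 225) in WT against 99.3 CPM (5 UMIs, 32.2 to 232) in KO, and its interval overlapped that of the *Crabp1*-led cluster in both libraries.

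*Dkk2* (chr3:132085292-132180304, plus strand) encodes a Dickkopf protein that inhibits LRP6 and can activate it in other settings. It had 458 UMIs in WT and 227 in KO, and 91.0% of them in WT and 74.4% in KO lay in glial-like cells. The glial-like level was 274 CPM (248 to 302) in WT against 191 CPM (163 to 222) in KO, giving a log2 KO/WT of −0.52 (−0.79 to −0.26). *Dkk2* was thus lower in KO glial-like cells by less than 2-fold, and it was at 2.45 and 3.55 CPM in macrophage-like cells. The order of the clusters was led in both libraries by the *Grb14*-led cluster, of which *Dkk2* was itself a leading gene, with 501 CPM (413 to 603) in WT against 677 CPM (476 to 933) in KO. In WT the *Pcdh20*-led cluster followed at 278 CPM (234 to 328), then the *Cdc25c*-led cluster at 252 CPM (198 to 316) and the *Epha5*-led cluster at 179.7 CPM (144 to 221). In KO the *Pcdh20*-led cluster was at 179.0 CPM (138 to 228), the *Epha5*-led cluster at 176 CPM (132 to 230) and the *Cdc25c*-led cluster at 78.0 CPM (40.3 to 136). The *Grb14*-led cluster stood clear of the others in both libraries, while the neighbours below it overlapped in their intervals. The KO level was lower in the *Pcdh20*-led cluster, with a log2 ratio of −0.64 (−1.08 to −0.20), and in the *Cdc25c*-led cluster, at −1.69 (−2.71 to −0.80), and it was not distinguishable in the *Epha5*-led cluster, at −0.03 (−0.54 to 0.47), or the *Grb14*-led cluster, at 0.43 (−0.14 to 0.98). These ratios were not tested against each other. In the *Cdc25c*-led cluster the share of cells with a *Dkk2* UMI was 39.7% (28.03 to 52.3) in WT and 34.6% (17.2 to 55.7) in KO, at median depths of 4005.5 and 6093.5. After thinning it was 25.8% (15.8 to 38.0) in WT against 2 of 25 cells in KO (0.984 to 26.0%), with overlapping intervals. The share of all glial-like cells with a UMI was 43.4% in WT and 34.9% in KO, against 1.37% and 2.78% of macrophage-like cells. Mesenchymal-like cells had 21.5 CPM in WT against 28.4 CPM in KO (log2 ratio 0.40, and −0.50 at WT cluster weights), with 62.2 and 71.3 CPM in the *Mfap5*-led cluster, 39.0 and 33.3 CPM in the *Mfap4*-led cluster and 13.7 and 5.06 CPM in the *Crabp1*-led cluster.

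*Dkk3* (chr7:112116017-112159057, minus strand) encodes the most divergent Dickkopf protein, which is not known to block LRP6 as *Dkk1* does. It had 112 UMIs in WT and 33 in KO, of which 76.8% (67.9 to 84.2) and 39.4% (22.9 to 57.9) lay in melanoblast-like cells. The level in these cells was 33.9 CPM (27.1 to 41.8) in WT against 15.3 CPM (8.14 to 26.2) in KO, giving a log2 KO/WT of −1.15 (−2.11 to −0.30). The cluster led by *Ptgds* was at 44.1 CPM in WT against 22.9 CPM in KO, and the cluster led by *Pbk*, a mitotic kinase gene, at 22.0 CPM (24 UMIs) and 5.67 CPM (2 UMIs; log2 ratio −1.96, −5.08 to 0.05). *Dkk3* was thus the member of the 9 found chiefly in melanoblast-like cells in WT. Of all 9694 genes measured in these cells 12.3% passed 2-fold, 5.95% higher and 6.3% lower in KO, and 3 of 3 antagonists did, *Dkk3* lower and *Dkk2* (8 and 6 UMIs, log2 ratio 1.16, −0.64 to 2.88) and *Sfrp2* (5 and 11 UMIs, 2.72, 1.07 to 4.59) higher. In the same cells *Hbb-bs* was at 42.2 CPM in WT against 671 CPM in KO. Keratinocyte markers summed to 68.2 and 446 CPM, from 8 of 9 in each (*Trp63* at 0), with *Krt10* the most abundant at 42.2 and 174 CPM. Mast cell markers summed to 121 CPM in WT (6 of 8, *Ms4a2* and *Fcer1a* at 0) and 18.8 CPM in KO (5 of 8, *Mcpt4* also at 0), with *Cma1* the most abundant at 53.6 and 8.23 CPM. The part of these transcripts in the *Dkk3* ratio was not tested. The share of melanoblast-like cells with a *Dkk3* UMI was 14.7% (11.8 to 18.0) in WT and 8.63% (4.54 to 14.6) in KO at median depths of 4335 and 5654, against 0.685% and 0% of macrophage-like cells. After thinning the shares were 7.62% (5.499 to 10.2) and 4.32% (1.60 to 9.16), with overlapping intervals. Mesenchymal-like cells had 10.3 and 6.45 CPM (12 and 10 UMIs), glial-like cells 6.57 and 7.92 CPM (10 and 7 UMIs), and neither pair could be distinguished.

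The secreted Frizzled-related proteins carry a Frizzled-like domain that binds Wnt. *Sfrp1* (chr8:23411502-23449632, plus strand) had 218 UMIs in WT and 226 in KO and was found in both glial-like and mesenchymal-like cells. In glial-like cells it was at 114 CPM (98.0 to 133) in WT against 122 CPM (100.2 to 148) in KO, giving a log2 KO/WT of 0.10 (−0.26 to 0.45). The ratio of *Sfrp1* was −0.03 with thinning and −0.14 when clusters were named by raised markers alone. Within the class its level was highest in the *Epha5*-led cluster, at 248 CPM (206 to 296) in WT against 267 CPM (213 to 332) in KO. Next came the *Grb14*-led cluster at 97.6 CPM (61.2 to 148) and 183 CPM (87.7 to 336), the *Cdc25c*-led cluster at 51.0 and 45.5 CPM and the *Pcdh20*-led cluster at 27.6 and 24.4 CPM. This order was the same in both libraries, but the intervals of the first pair overlapped in KO and those of the later neighbours in both. In mesenchymal-like cells *Sfrp1* was at 22.3 CPM (14.6 to 32.7) in WT against 58.0 CPM (46.7 to 71.3) in KO, giving a log2 KO/WT of 1.38 (0.74 to 2.07). By cluster it was at 4.55 and 5.06 CPM in *Crabp1*-led, 68.2 and 94.4 CPM in *Mfap4*-led and 99.6 and 79.7 CPM in *Mfap5*-led cells, and each of these pairs overlapped. In *Mfap4*-led cells the log2 ratio was 0.47 (−0.37 to 1.41), and −0.54 (−1.82 to 0.93) without the cells holding a UMI of an adipocyte or muscle marker. At Leiden resolution 2, where that cluster held 5 WT and 25 KO cells, it was 2.06. At WT cluster weights the log2 ratio of the class was 0.16. Without the cells of the class holding a UMI of an adipocyte or muscle marker it was 0.85 (−0.09 to 1.85). The cause of the difference of the class was not tested. *Sfrp1* had 0 UMIs in WT and 1 UMI in KO macrophage-like cells. In the unnamed *Pou3f1*-led cluster it was at 129 CPM (14 UMIs) in WT against 54.7 CPM (17 UMIs) in KO, giving a log2 KO/WT of −1.23 (−2.34 to −0.10).

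*Sfrp2* (chr3:83766321-83774316, plus strand, overlapped on the other strand by the gene model *Gm26771*) encodes a Frizzled-related protein common in fibroblasts. It had 270 UMIs in WT and 856 in KO, 94.1% and 92.8% of them in mesenchymal-like cells. The level of the class was 218 CPM (192 to 247) in WT against 512 CPM (477 to 549) in KO, giving a log2 KO/WT of 1.23 (1.03 to 1.44). The clusters differed among themselves more than the libraries did. *Crabp1*-led cells had 142 CPM (118 to 169) in WT against 106 CPM (81.7 to 136) in KO, giving a log2 KO/WT of −0.42 (−0.88 to 0.03). *Mfap4*-led cells had 375 CPM (296 to 469) and 846 CPM (780 to 915), giving a log2 KO/WT of 1.17 (0.83 to 1.53). *Mfap5*-led cells had 647 CPM (483 to 849) and 512 CPM (425 to 611), giving a log2 KO/WT of −0.34 (−0.82 to 0.16). In WT the order was thus *Mfap5*-led, *Mfap4*-led, *Crabp1*-led and in KO *Mfap4*-led, *Mfap5*-led, *Crabp1*-led, and no neighbours overlapped in either. By number of UMIs, the *Crabp1*-led cluster held the largest single share of the WT *Sfrp2*, 125 of 270 UMIs. The *Mfap4*-led cluster held most of that in KO, 609 of 856. The *Mfap4*-led cluster, with *Sfrp2* and *Sfrp4* among its leading genes, was the mesenchymal-like cluster in which *Sfrp2* was higher in KO beyond counting error, but over 11 alternative settings this ratio ranged from 0.29 to 1.37. In this cluster 4 of 7 adipocyte markers had UMIs in each library (*Plin1*, *Plin4* and *Cidec* at 0 in both), with a sum of 1573 CPM in WT, mostly *Car3* at 833 CPM, against 239 CPM in KO, mostly *Fabp4* at 124 CPM. Of 8 muscle markers 7 had UMIs in each library, summing to 219 CPM in WT (*Myog* 107 CPM, *Ttn* at 0) and 289 CPM in KO (*Actc1* 129 CPM, *Myh3* at 0). A UMI of an adipocyte marker was held by 16 of 37 WT and 32 of 130 KO cells, and without them the log2 ratio of *Sfrp2* in the cluster was 0.75 (0.33 to 1.20). Without the cells holding a UMI of either list it was 0.44 (−0.05 to 0.97), on 17 WT and 70 KO cells, so the higher *Sfrp2* of the cluster was not beyond counting error there. At WT cluster weights the log2 ratio of the class was 0.22. The share of mesenchymal-like cells with an *Sfrp2* UMI was 41.0% (34.6 to 47.7) in WT and 59.2% (53.0 to 65.3) in KO, against 1.37% and 13.9% of macrophage-like cells. After thinning these shares were 23.6% and 43.9% in mesenchymal-like and 0% and 5.56% in macrophage-like cells. *Sfrp2* was also the antagonist past 2-fold in glial-like cells, at 1.97 CPM (3 UMIs) in WT against 21.5 CPM (19 UMIs) in KO, giving a log2 KO/WT of 3.45 (1.68 to 5.85). The macrophage-like level was 2.45 CPM (0.296 to 8.84) in WT against 35.5 CPM (17.0 to 65.3) in KO and the melanoblast-like level 1.97 and 12.9 CPM. All 3 WT glial-like UMIs lay in 1 cell, and 10 of the 19 in KO lay in 1 of 8 cells. After thinning 0 of 382 WT and 0 of 188 KO glial-like cells held one, and the source of these UMIs was not tested.

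*Sfrp4* (chr13:19623104-19632994, plus strand) encodes a Frizzled-related protein of connective tissue and had the largest ratio of the 8 antagonists compared in mesenchymal-like cells. It had 5 UMIs in WT, all in mesenchymal-like cells, and 155 in KO, 149 of them in that class. The level of the class was 4.29 CPM (1.39 to 10.0) in WT against 96.0 CPM (81.2 to 113) in KO, giving a log2 KO/WT of 4.48 (3.23 to 6.13). In KO, 84.5% (77.8 to 89.8) of its UMIs lay in the *Mfap4*-led cluster, where it was at 14.6 CPM (3 UMIs in 37 cells) in WT against 182 CPM (131 UMIs in 130 cells) in KO, giving a log2 KO/WT of 3.64 (2.06 to 5.93). *Mfap5*-led cells had 24.9 CPM (2 UMIs) in WT against 62.9 CPM (15 UMIs) in KO, giving a log2 KO/WT of 1.34 (−0.77 to 4.51). *Sfrp4* was thus higher in KO in the class, at WT cluster weights (log2 ratio 3.07) and within the *Mfap4*-led cluster, where 13 settings for the class and 11 for the cluster gave values of 3.07 to 5.89 and 2.08 to 4.37. Without the *Mfap4*-led cells that held a UMI of an adipocyte or muscle marker the ratio was 3.59 (1.05 to 8.92). The share of *Mfap4*-led cells with an *Sfrp4* UMI was 5.41% (0.661 to 18.2) in WT and 26.2% (18.8 to 34.6) in KO, and these intervals did not overlap. After thinning the shares were 5.41% (0.661 to 18.2) and 18.4% (12.04 to 26.3), which did overlap. The largest count in a single KO cell was 16 UMIs. Macrophage-like cells had 0 UMIs in both libraries, a limit of 3.67 CPM for WT and 10.6 CPM for KO. Of the 6 other KO UMIs of *Sfrp4*, 2 lay in keratinocyte-like cells and 1 each in erythroid-like, glial-like, granulocyte-like and melanoblast-like cells.

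*Frzb* (chr2:80411970-80447625, minus strand), also known as *Sfrp3*, had 4 UMIs in each library, and 3 of them in WT and 2 in KO lay in the *Ebf1*-led cluster of 12 and 14 cells. No ratio could be read at this depth. *Dkk1* and *Wif1* were also found in that cluster. So were *Sfrp2*, with 3 UMIs (65.8 CPM) in WT and 8 (159 CPM) in KO, and *Sostdc1*, with 0 in WT and 7 (139 CPM) in KO. *Dkk2* had 0 and 2 UMIs there and *Dkk3* 1 and 0. The leading genes of the cluster after *Ebf1* were *Stmn2*, *Bmp3*, *Hs3st6*, *Bmp4*, *Rspo3*, *Col7a1*, *Inhba*, *Col23a1* and *Nrtn*.

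*Wif1* (chr10:121033960-121100650, plus strand) encodes a protein with a WIF domain and EGF-like repeats that binds Wnt ligands. It had 229 UMIs in WT and 215 in KO, 69.0% and 73.0% of them in mesenchymal-like cells. The level of the class was 136 CPM (115 to 158) in WT against 101.2 CPM (86.0 to 118) in KO, giving a log2 KO/WT of −0.42 (−0.75 to −0.09). Within the *Crabp1*-led cluster, which held 157 of the 158 UMIs of the class in WT, the level was 179 CPM (152 to 209) in WT against 235 CPM (197 to 277) in KO, giving a log2 KO/WT of 0.39 (0.05 to 0.73). *Wif1* was thus lower in KO over the class and higher in KO within its main cluster, both by less than 2-fold, and at WT cluster weights the ratio of the class was 0.42. The share of *Crabp1*-led cells with a *Wif1* UMI was 44.4% (36.9 to 52.2) in WT and 60.2% (49.8 to 70.0) in KO, against 1.37% and 13.9% of macrophage-like cells. After thinning it was 28.5% (21.7 to 36.0) and 30.6% (21.7 to 40.7), so at equal depth the shares could not be distinguished. *Mfap4*-led cells had 4.87 CPM (1 UMI) in WT against 23.6 CPM (17 UMIs) in KO, giving a log2 KO/WT of 2.28 (−0.40 to 7.66), and the KO value was near the 24.8 CPM of KO macrophage-like cells. The *Ebf1*-led cluster was at 197 CPM (90.2 to 375) in WT against 139 CPM (55.9 to 286) in KO and overlapped the *Crabp1*-led cluster in both libraries. Glial-like cells had 32.9 CPM (24.4 to 43.3) and 23.8 CPM (14.7 to 36.3). The *Cdc25c*-led cluster was at 57.8 CPM (17 UMIs) in WT against 13.0 CPM (2 UMIs) in KO, giving a log2 KO/WT of −2.15 (−5.31 to −0.08), and its shares of cells with a UMI, 22.1% (12.9 to 33.8) and 7.69% (0.946 to 25.1), overlapped. The *Pcdh20*-led cluster was at 35.5 and 43.4 CPM, at 0.29 (−0.78 to 1.34) on the log2 scale. In the *Grb14*-led cluster *Wif1* was at 62.1 CPM (14 UMIs) in WT and at 0 in 14 KO cells, a limit of 54.9 CPM, and a difference could not be read at this depth. Keratinocyte-like cells had 0 UMIs in WT (limit 36.1 CPM) and 22.4 CPM (17 UMIs) in KO, so no difference was detectable at this depth. In WT macrophage-like cells *Wif1* was at 11.0 CPM, from 9 UMIs in 2 cells.

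*Sostdc1* (chr12:36314139-36318452, plus strand) encodes a protein that antagonizes both Wnt and BMP signaling and is known from epithelial placodes. It had the most UMIs of the 9 genes in the WT library, 841, and 777 in KO, and 93.6% and 69.6% of them lay in glial-like cells. The glial-like level was 517 CPM (482 to 555) for WT and 612 CPM (562 to 666) for KO, at 0.24 (0.08 to 0.40) on the log2 scale, and this ratio was −0.08 when clusters were named by raised markers alone. *Epha5*-led glial-like cells had 1530.5 CPM (1423 to 1643) in WT against 1667 CPM (1525 to 1818) in KO, giving a log2 KO/WT of 0.12 (−0.04 to 0.29). A *Sostdc1* UMI was found in 89.9% (83.0 to 94.7) of these cells in WT and in 58 of 58 in KO, at median depths of 3583 and 4632, against 2.05% and 16.7% of macrophage-like cells. *Sostdc1* was the first leading gene of this cluster although it had been held out of the clustering, and its level there was not distinguishable between the libraries. The other glial-like clusters were lower, at 84.3 CPM (50.8 to 132) in WT against 348 CPM (209 to 543) in KO for the *Grb14*-led cluster, 27.2 and 39.0 CPM for the *Cdc25c*-led cluster and 3.95 and 13.6 CPM for the *Pcdh20*-led cluster. The *Grb14*-led cluster thus had a log2 ratio of 2.04 (1.05 to 3.04), on 19 UMIs in each library and 14 KO cells. Keratinocyte-like cells were at 133 CPM (66.2 to 237) in WT against 162 CPM (134 to 193) in KO, with a log2 ratio of 0.29 (−0.60 to 1.33). In mesenchymal-like cells *Sostdc1* was at 21.5 CPM (13.9 to 31.7) in WT against 49.6 CPM (39.2 to 62.0) in KO, giving a log2 KO/WT of 1.21 (0.54 to 1.92). Of its clusters, *Mfap4*-led cells had 9.74 CPM (2 UMIs) for WT and 59.7 CPM (43 UMIs) for KO, with a log2 ratio of 2.62 (0.68 to 5.71) that was −0.11 at Leiden resolution 2. *Crabp1*-led cells had 26.2 CPM for WT and 42.2 CPM for KO, with a log2 ratio of 0.69 (−0.19 to 1.57) that was −1.49 once macrophage-like levels were subtracted. Macrophage-like cells had 7.34 CPM (2.69 to 16.0) in WT against 35.5 CPM (17.0 to 65.3) in KO, from 6 and 10 UMIs, and after subtraction of these levels the ratio in mesenchymal-like cells was 0.00. Melanoblast-like cells had 0.394 CPM (1 UMI) in WT against 4.71 CPM (4 UMIs) in KO, and with these levels subtracted instead, a setting chosen after seeing the data, it was 1.09. The *Sostdc1* ratio of the class thus depended on the cells taken as background. Glial markers in mesenchymal-like cells summed to 69.5 CPM in WT, from 8 of 9 markers with *Sox2* at 0, and to 125 CPM in KO, from 9 of 9. *Ngfr* was the most abundant of them in KO, at 43.2 CPM. Keratinocyte markers summed to 53.2 CPM in WT and 449 CPM in KO mesenchymal-like cells, from 6 of 9 (*Krt15*, *Trp63* and *Perp* at 0) and 9 of 9 markers, with *Krt10* the most abundant at 42.1 and 173 CPM, and to 42.8 and 341 CPM in macrophage-like cells. The part of free glial or keratinocyte RNA in the mesenchymal-like *Sostdc1* was not tested beyond these subtractions.

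**Figure D3:**
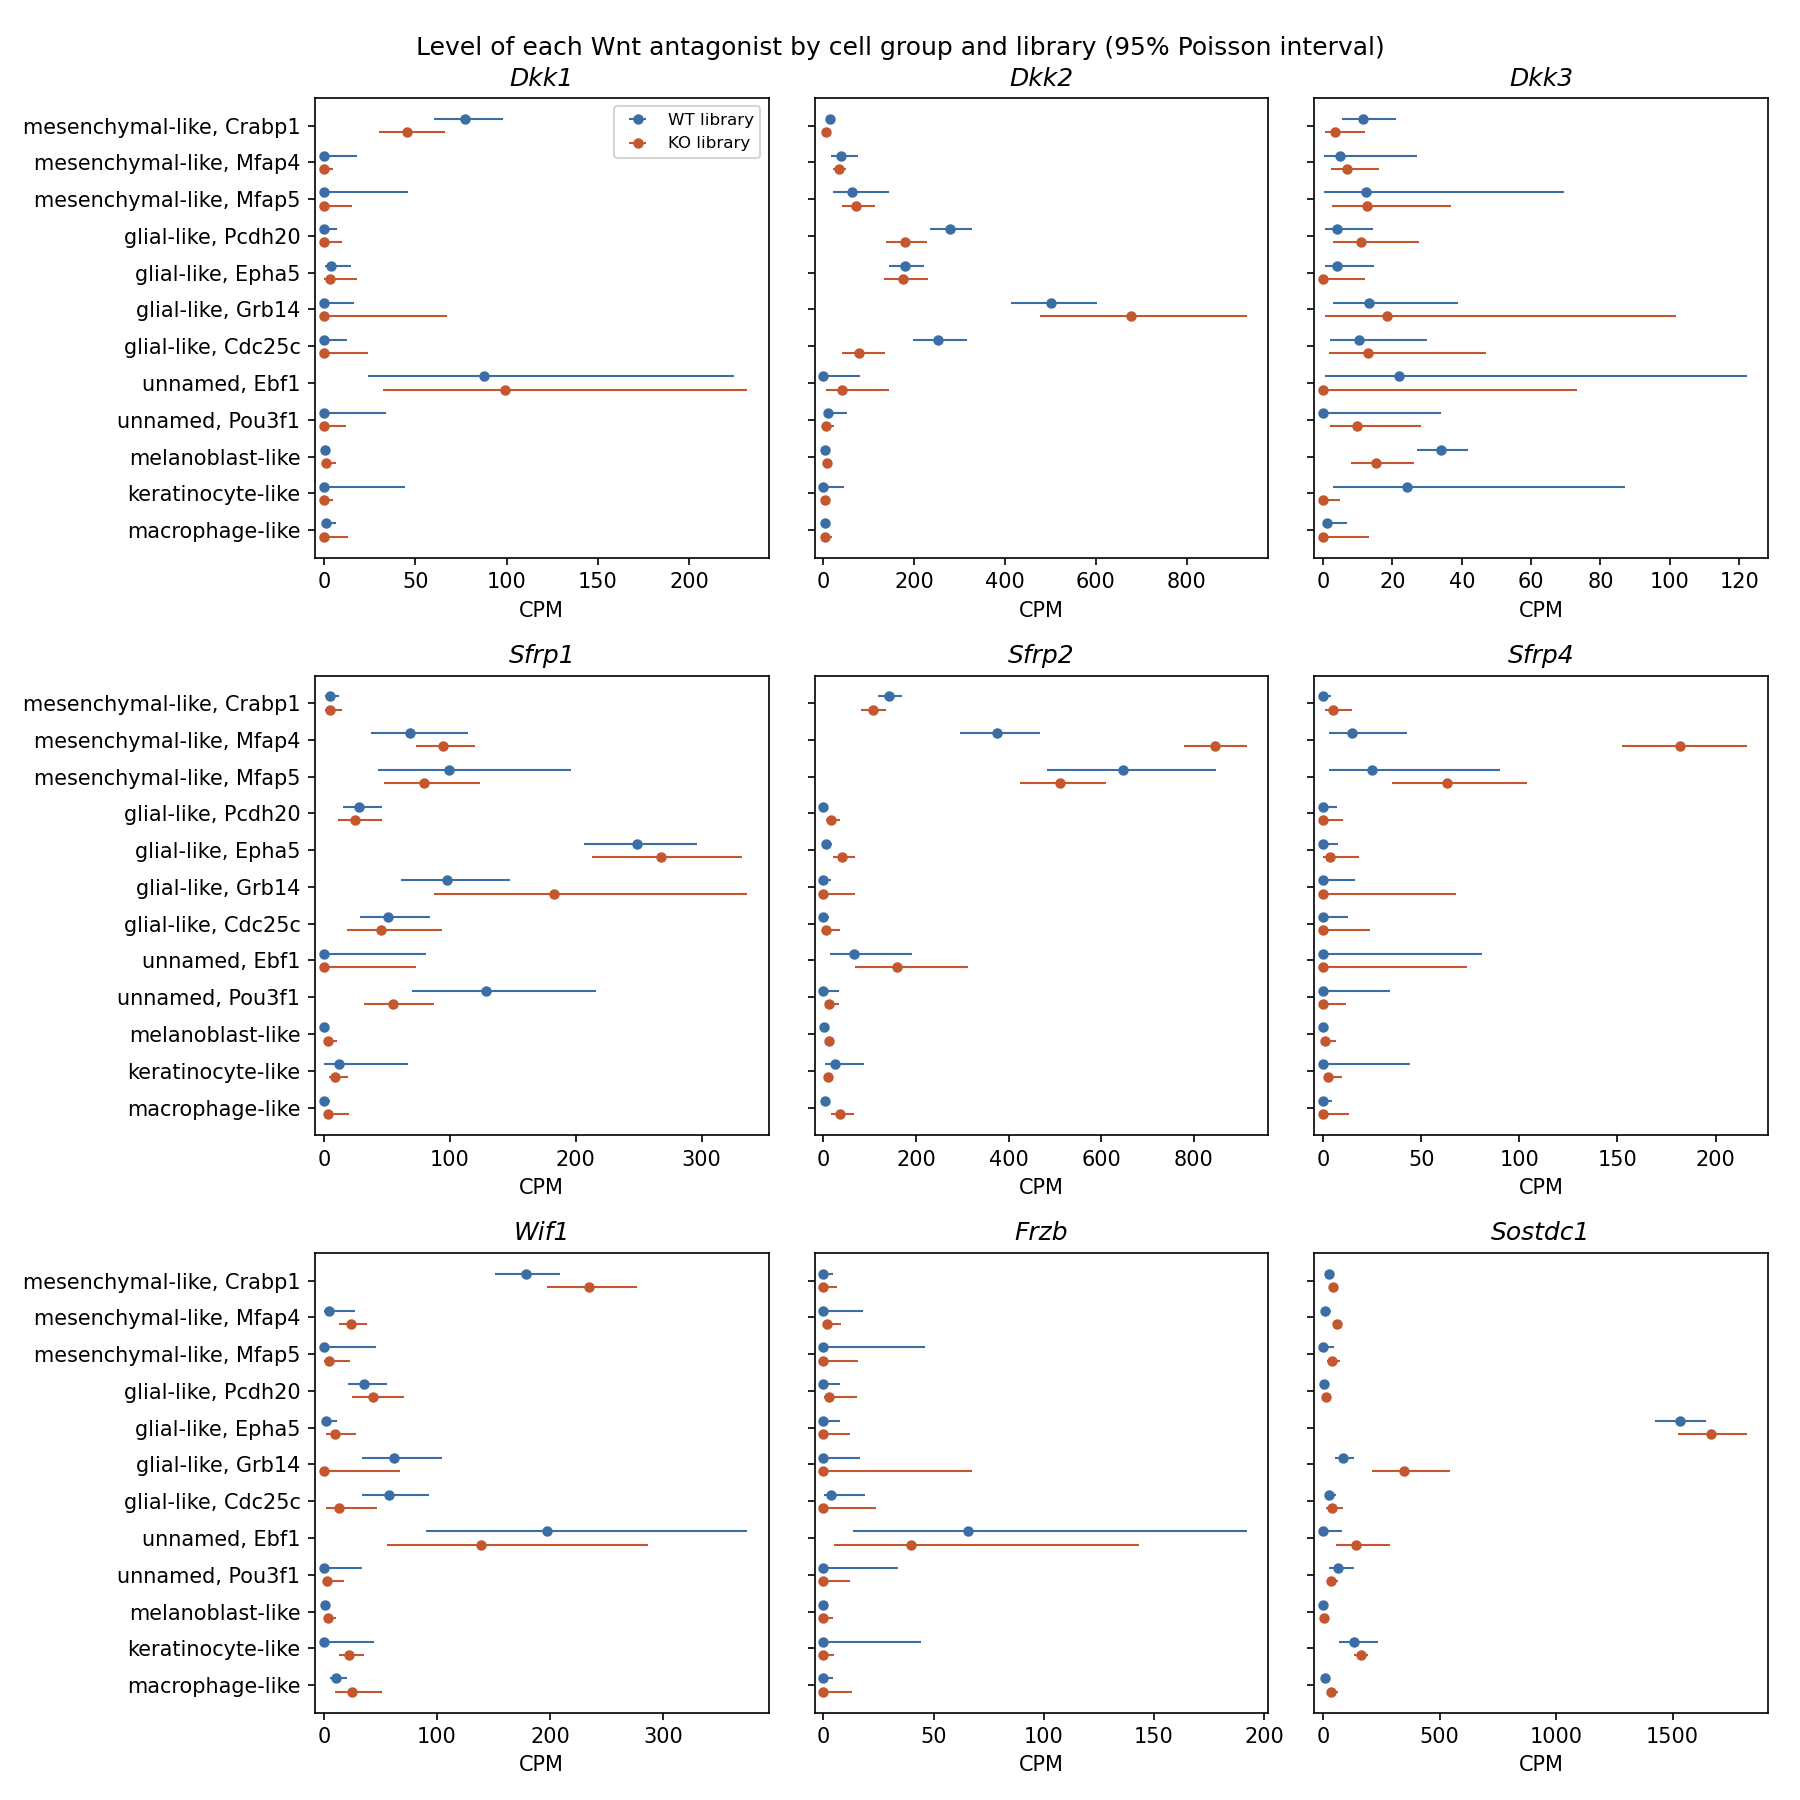
Each panel shows the level of 1 antagonist in CPM (horizontal axis, own scale per gene) in 12 groups of cells, with the WT library in blue and the KO library in orange and 95% Poisson intervals of counting error. The highest levels of *Dkk1* and *Wif1* lie in *Crabp1*-led and *Ebf1*-led cells, those of *Sfrp2* and *Sfrp4* in *Mfap4*-led and *Mfap5*-led cells, and those of *Sfrp1* and *Sostdc1* in *Epha5*-led cells.

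Across the adipocyte-like, endothelial-like, erythroid-like, granulocyte-like, mast cell-like and pericyte-like classes, no antagonist had more than 2 UMIs in a class and library. Mast cell-like cells of the WT library, 92 in number, had 6 antagonist UMIs, and 5.43% of them (1.79 to 12.2) held any. The share was 12.9% (3.63 to 29.8) of 31 adipocyte-like and 9.52% (1.17 to 30.4) of 21 endothelial-like WT cells and 21.1% (6.05 to 45.6) of 19 erythroid-like KO cells, with 1 antagonist at most in any of these cells.

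Joint detection of 2 antagonists in the same cell was counted in 3 clusters. In *Crabp1*-led WT cells, *Dkk1* and *Wif1* were found together in 24 of 171 cells, where the product of their shares gives 16.9, and in KO in 10 of 98, where it gives 9.03. *Sfrp2* and *Wif1* were together in 19 WT cells, where the product gives 24.9, and in 15 KO cells, where it gives 18.1. *Dkk1* and *Sfrp2* were together in 8 WT cells, with 12.4 from the product, and in 4 KO cells, with 4.59. After thinning *Dkk1* and *Wif1* met in 9 WT and 4 KO cells, with 4.84 and 2.76 from the product, and *Sfrp2* and *Wif1* in 6 and 4 cells, with 7.98 and 5.20. In *Mfap4*-led cells *Sfrp2* and *Sfrp4* met in 2 WT and 31 KO cells, with 1.24 and 25.4 from the product, and *Sfrp1* and *Sfrp2* in 8 and 32 cells, with 7.46 and 25.4. In *Epha5*-led WT cells *Sfrp1* and *Sostdc1* met in 63 cells, with 61.1 from the product, and *Dkk2* and *Sostdc1* in 37, with 39.6. All KO cells of this cluster held *Sostdc1*, so its pairs carry no information there at full depth. After thinning the 2 pairs met in 35 and 19 WT cells, with 36.5 and 21.2, and in 20 and 9 KO cells, with 20.1 and 8.22. At full depth *Dkk2* and *Sfrp1* met in 27 WT and 9 KO cells, with 25.1 and 11.0. Deeper cells hold more UMIs of any gene, which raises joint detection, and no test was made. In the *Epha5*-led cluster 67.2% of WT and 81.0% of KO cells held at least 2 antagonists, and 44.6% and 44.8% did after thinning.

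Other genes of the pathway were read from lists of 70 genes, all of which were found. Of all genes measured in mesenchymal-like cells 8.61% were past 2-fold higher in KO and 3.84% lower, and these shares stand beside each list below. In mesenchymal-like cells 7 of 19 Wnt ligands had enough UMIs for a ratio, of which 1 was past 2-fold higher in KO (*Wnt2*, 9.44 CPM in WT against 21.3 CPM in KO) and 2 were lower (*Wnt6*, 10.3 and 4.51 CPM, and *Wnt11*, 6.87 and 2.58 CPM). The median log2 ratio of the ligands was 0.04, beside 0.01 over all genes. The most abundant ligand, *Wnt5a*, which acts largely through the non-canonical branch, was at 51.5 and 52.9 CPM. Of 12 receptors and co-receptors with enough UMIs, 4 were past 2-fold higher, *Fzd4*, *Fzd7*, *Fzd8* and *Ror1*, and 0 lower, with a median of −0.02. The most abundant, *Fzd2*, was at 75.5 and 77.4 CPM. Within the *Crabp1*-led cluster 0 of 4 ligands and 0 of 8 receptors passed 2-fold, where 12.8% of all genes did.

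The rspondins and their receptors, which potentiate Wnt signaling, had 5 of 9 genes measured in mesenchymal-like cells, 0 past 2-fold and a median of −0.12. *Rspo3* was the most abundant, at 77.2 CPM in WT against 41.9 CPM in KO, giving a log2 KO/WT of −0.88 (−1.37 to −0.41), and within the *Crabp1*-led cluster it was at 86.4 and 69.2 CPM, giving a log2 KO/WT of −0.32 (−0.91 to 0.25). Of 8 other extracellular antagonists 1 could be compared, *Sfrp5*, at 24.0 and 21.9 CPM in the class (log2 ratio −0.13, −0.90 to 0.64). In the *Crabp1*-led cluster it was at 30.7 and 57.4 CPM, giving a log2 KO/WT of 0.90 (0.13 to 1.69). *Sfrp5* thus resembled *Wif1* in its values, near or below 0 over the class and higher in KO within that cluster.

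The list of Wnt targets, genes transcribed when β-catenin enters the nucleus, had 6 of 6 genes measured in mesenchymal-like cells. Of these 0 were past 2-fold higher and 3 lower, *Lef1*, *Tcf7* and *Sp5*, with a median of −1.06. *Lef1*, which encodes a partner of β-catenin, was at 39.5 CPM in WT against 12.9 CPM in KO, giving a log2 KO/WT of −1.61 (−2.45 to −0.83), *Tcf7* at 8.58 and 3.87 CPM (−1.15, −2.89 to 0.45) and *Sp5* at 11.2 and 1.93 CPM (−2.53, −4.98 to −0.66). *Nkd1*, a feedback inhibitor and the most abundant target, was at 90.1 and 67.0 CPM, giving a log2 KO/WT of −0.43 (−0.83 to −0.02). Within the *Crabp1*-led cluster the median of the 6 targets was −0.34 and 1, *Sp5*, was past 2-fold (12.8% of all genes), on 13 WT and 2 KO UMIs (log2 ratio −2.13, −5.32 to 0.01). There *Lef1* was at 50.0 and 32.1 CPM (log2 ratio −0.64, interval including 0), *Nkd1* at 115 and 122 CPM and *Axin2*, another feedback inhibitor, at 25.0 and 38.8 CPM (0.63, −0.27 to 1.55). Of the 3 targets past 2-fold over the class, *Lef1* and *Sp5* were lower in KO beyond counting error there and neither was within the cluster. Of 10 intracellular components measured in mesenchymal-like cells, 1 was past 2-fold higher (*Dvl1*, 3 and 12 UMIs, log2 ratio 1.59, −0.30 to 4.05) and 0 lower, with a median of 0.09. The most abundant, *Csnk1a1*, was at 178 and 162 CPM. Among the 18 list genes with at least 50 UMIs, the largest ratios were those of *Tcf7l2*, at 103 and 141 CPM (log2 ratio 0.45, 0.12 to 0.78), *Tcf7l1* at 29.2 and 33.5 CPM and *Gsk3b* at 63.5 and 72.2 CPM. The smallest, beside *Lef1* and *Rspo3*, was *Dvl2* at 25.7 and 14.2 CPM (log2 ratio −0.86, −1.72 to −0.02).

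For each antagonist with at least 100 UMIs, the genes of most similar pattern were found by Pearson r of log2(CPM + 10) over 26 units, each a cluster in a library with at least 20 cells, among 8211 genes. The units of a library share its depth and its free RNA, and the values are a description. *Dkk1* was nearest to *Apela* (r = 0.967), *Col7a1* (0.874) and *a*, the agouti gene (0.864), and *Wif1* to *Slit3* (0.799), *5930412G12Rik* (0.772) and *Apela* (0.752). *Dkk2* was nearest to *Npr3* (0.887) and *Grb14* (0.870), and *Dkk3* to *Tspan10* (0.761), *Mc1r* (0.758) and *Atg4a* (0.754). Of these neighbours, *Apela* was among the leading genes of the *Crabp1*-led cluster and *Grb14* among those of the cluster called by its name, *Col7a1* was among those of the *Ebf1*-led cluster, and *Tspan10* is a melanoblast marker. *Sfrp1* was nearest to *Tenm3* (0.919), *Tmod2* (0.910) and *Matn2* (0.905) and *Sostdc1* to *Col9a3* (0.889), *Ank3* (0.881) and *Itgb8* (0.879). *Sfrp2* was nearest to *Abi3bp* (0.973), *Zim1* (0.971) and *Aspn* (0.970), and *Sfrp4* to *Acta2* (0.901), *Ly6h* (0.888) and *Angptl1* (0.887). Between the antagonists themselves the highest values were 0.842 for *Sfrp2* with *Sfrp4*, 0.701 for *Dkk2* with *Sfrp1*, 0.695 for *Sfrp1* with *Sostdc1* and 0.693 for *Dkk1* with *Wif1*.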

How the data were processed

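Raw UMI counts per gene and cell barcode, as the authors deposited them, were used for 1 WT and 1 KO library. By the submitters' notes they were made with Cell Ranger 2.2.0 on mm10. Cells with at least 100 genes, at most 40000 UMIs and at most 10% mitochondrial UMIs were kept, and each cell was normalized to 10000 UMIs before log1p. Of 2000 variable genes 50 were held out of the clustering, among them the antagonists, Wnt genes and sex-linked genes. Clusters came from 30 principal components, 15 neighbours and Leiden resolution 1 (scanpy 1.11.5, igraph 0.11.9) and were named where at least 3 markers were raised and no other marker list had more genes among the 10 leading genes. CPM pool the cells of a group and are scaled to 1000000 of its UMIs, with exact Poisson intervals; shares have Clopper-Pearson intervals (scipy 1.17.1). A count of 0 was given a limit of 3 counts. Past 2-fold means a CPM ratio of at least 2 in either direction among genes with at least 10 UMIs in both libraries together. Named genes were the 9 antagonists, the most abundant gene of each Wnt list, the 3 largest and 3 smallest ratios among list genes with at least 50 UMIs, the 3 genes nearest in pattern and leading genes of clusters. Other list genes were named after their values were seen. Coordinates are from GENCODE M21. Alternatives were the gene minimum, doublets, Leiden resolution, no genes held out, thinning, means over cells, the UMI minimum, background subtraction and WT cluster weights. Thinning left out cells with fewer than 2000 UMIs. The ratios and counts by smaller group, pooled shares without 1 gene, naming by markers alone, melanoblast-like levels as background and leaving out cells with adipocyte or muscle markers were chosen after seeing the data. The antagonists and the lists were chosen with earlier results of these data known.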

Additional observations from a re-analysis of the deposited data

Results flagged for a closer look

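*Wif1* differed in sign between mesenchymal-like cells as a whole and the *Crabp1*-led cluster within them. The log2 ratio of KO over WT was −0.42 (−0.75 to −0.09) over the class and 0.39 (0.05 to 0.73) within the cluster. The cluster is part of the class and made up 74.7% of it in WT and 37.7% in KO. The difference between the 2 ratios was not tested.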

How the results depend on the processing

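The share of antagonist UMIs in mesenchymal-like cells moved beyond its interval at Leiden resolution 2, to 21.0% in WT and 49.8% in KO, and with cells thinned to 2000 UMIs, to 21.0% in WT. The count of antagonists past 2-fold in mesenchymal-like cells, 5, became 3 at WT cluster weights, with fewer of the differences left once the mix of clusters was held equal, 2 without the cells holding UMIs of adipocyte or muscle markers, and 4 or 5 under the other settings. In the *Crabp1*-led cluster the count of 2 became 0 at Leiden resolution 2, with at least 50 UMIs, without the cells called as doublets and with thinning, where 4 of its 6 antagonists (3 at 50 UMIs) still had the UMIs for a ratio, 1 with means over cells and 3 with macrophage-like levels subtracted. In the *Mfap4*-led cluster the count of 4 was 2 to 5. The 2 genes of the *Crabp1*-led cluster had 15 and 12 UMIs. There, with thinning, *Dkk3* turned to a log2 ratio of 0.17, on fewer than 10 UMIs, and *Dkk1* to 0.41, and *Sostdc1* turned to −1.49 with macrophage-like levels subtracted. At WT cluster weights *Dkk2* turned to −0.50 and *Wif1* to 0.42 in mesenchymal-like cells, and *Sfrp1* turned to −0.54 in the *Mfap4*-led cluster without cells holding adipocyte or muscle markers. In the *Mfap4*-led cluster *Sostdc1* turned to −0.11 at Leiden resolution 2, where that cluster held 5 WT and 25 KO cells. In glial-like cells *Sfrp1* turned to −0.03 with thinning. With clusters named by raised markers alone, *Sfrp1* turned to −0.14 there and *Sostdc1* to −0.08. *Sfrp2* turned to 0.05 in the *Crabp1*-led cluster at Leiden resolution 2, and *Sfrp1* to −0.01 in the *Mfap4*-led cluster with at least 500 genes per cell. The cause of the other shifts was not tested, and the counts under other settings had no share of all genes beside them. Of the ratios of single antagonists over all settings, 93 of 103 stayed within the interval of the reported ratio in mesenchymal-like cells, 45 of 52 in the *Crabp1*-led cluster, 49 of 62 in the *Mfap4*-led cluster and 48 of 50 in glial-like cells. Depth limits *Frzb*, *Dkk3* outside melanoblast-like cells and any ratio in the *Ebf1*-led and *Grb14*-led clusters. With 1 library per genotype, no paired analysis and no test between genotypes was possible.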
